A study of Mus musculus with 6 samples.

Results

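The type I interferon-stimulated antiviral genes described here were 45 genes listed by name, out of 54532 genes in the count table of mouse Th1 cells cultured with or without ALX-5407. CD4+ T cells from the spleen of male C57BL/6 mice were activated with anti-CD3 and anti-CD28 and polarized with IL-2, IL-12 and anti-IL-4. Both groups shared these conditions and were harvested after 72 h per the labels. In the Th1 group, 3 libraries came from cells that per the study's methods received vehicle, 0.1% DMSO, and in the ALX-5407 group 3 libraries came from cells given 500 nM ALX-5407, which blocks GlyT1, the glycine transporter encoded by Slc6a9. The methods text gives a shorter exposure to the inhibitor than the labels. The comparison asks how RNA levels of the antiviral genes differed between Th1 cells with and without the inhibitor. The labels call the libraries biological replicates but do not tie them to separate mice, so the p-values measure only the spread between these samples, which may be technical.

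Type I interferons bind the receptor IFNAR, whose kinases JAK1 and TYK2 activate STAT proteins. With IRF9, STAT2 takes part in the complex ISGF3, which binds interferon-stimulated response elements in the promoters of antiviral genes. In T cells, interferon gamma from the Th1 cells themselves acts through gamma-activated sites and induces many of the same genes.

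Of the 45 genes, 41 had enough counts to be tested. Levels are in CPM, counts scaled to the library size with TMM factors. Each gene was tested in edgeR by the quasi-likelihood method, with p-values adjusted over 15938 genes (Benjamini-Hochberg), and SE below is the standard error of a log2FC. At an adjusted p under 0.05, 26 members were higher and 5 were lower with ALX-5407, and 10 did not pass the test. The 26 higher members are 63.4% of those tested, beside 24.5% of all genes tested that were called higher. The 5 lower members are 12.2%, beside 23.2% of all genes tested that were called lower. In bulk RNA, a change in the share of cells of a type and a change in RNA per cell cannot be told apart.

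Most of these differences were moderate in size. The median log2 fold change (log2FC, ALX-5407 over Th1) of the tested members was 0.53, beside 0.0053 for all genes tested, with 32 members above 0 and 9 below. With an absolute log2FC over 1 as a second condition, 7 members were higher (17.1% of those tested, against 3.36% of all genes tested). These were Mx1, Cmpk2, Rsad2, Oas1a, Xaf1, Lgals3bp and Parp14. Of these, Mx1 and Rsad2 passed the low-count filter in full only in the ALX-5407 libraries. Among the 37 members that passed it in both groups, 5 (13.5%) were higher by this measure. With both conditions 4 members were lower (9.76%, against 6.68%), namely Ifitm1, Ifitm2, Ifitm3 and Usp18. In 29 members all ALX-5407 libraries lay above all Th1 libraries (70.7%, against 28.4% of all genes tested), and in 5 all lay below (12.2%, against 27.1%). The 29 include Oas2, Oasl2, Mx1 and Rsad2. These genes passed the low-count filter in full only in the ALX-5407 libraries, which favoured this order. None of the 31 called members had overlapping groups.

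Most tested members passed the low-count filter in both groups. At the filter's cutoff of 0.296 CPM, 37 of the 41 tested members passed in every library of both groups, and 24 of them were higher, 5 lower and 8 not called. The other 4, Oas2, Oasl2, Mx1 and Rsad2, passed in full only in the ALX-5407 libraries, so the filter favoured higher levels there. Oas2 and Mx1 reached the cutoff in no Th1 library, so their counts were bound to be higher with ALX-5407. Rsad2 reached it in Th1 replicate 2, and Oasl2 in Th1 replicates 1 and 2. Among the 37, the median log2FC was 0.43, and 5 (13.5%) were higher with an absolute log2FC over 1, which leaves out Mx1 and Rsad2. The 4 members that were not tested were near the detection limit. Ifit3 had 2, 4 and 9 counts in the Th1 libraries and 2, 15 and 4 in the ALX-5407 libraries. Ifit3b had 0 counts in all 6 libraries. Rtp4, a chaperone of cell surface receptors, had 4, 0 and 0 counts without and 18, 13 and 8 with ALX-5407. Ifi44 had 0 counts in the Th1 libraries and 11, 0 and 6 with ALX-5407.

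**Figure D1:**
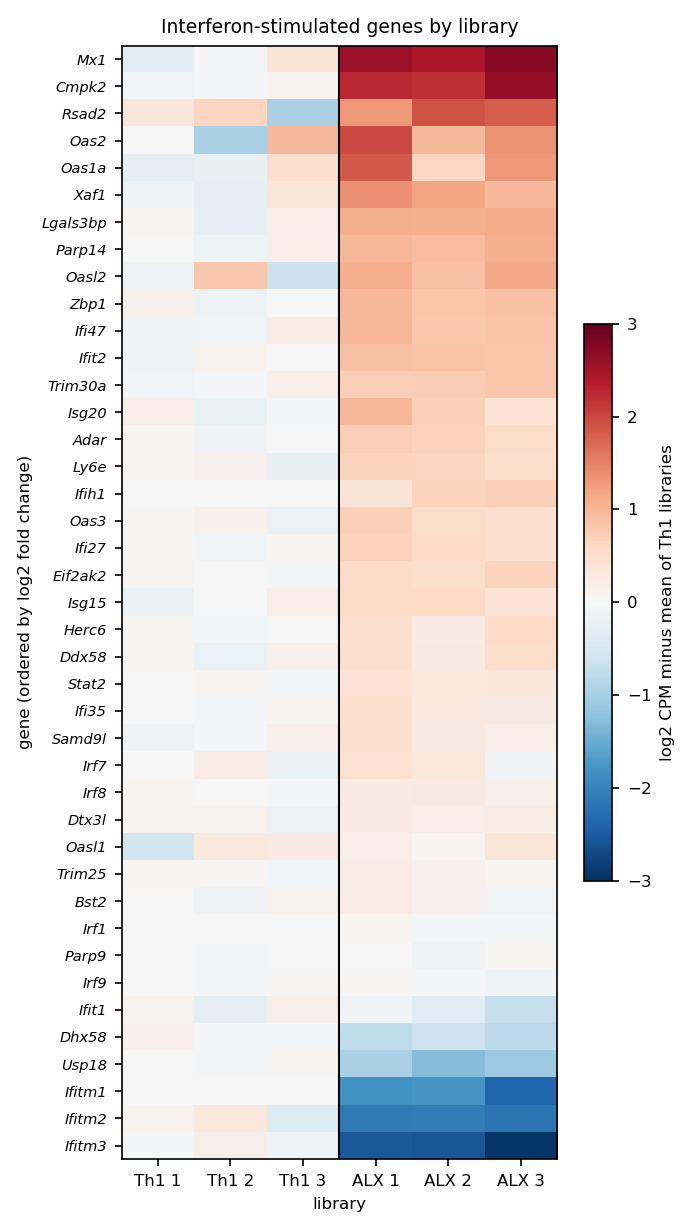
Heat map of the 41 tested antiviral genes (rows, ordered by log2 fold change) in the 3 Th1 and 3 ALX-5407 libraries (columns), coloured by log2 CPM minus the mean of the Th1 libraries. The upper rows are red and the Ifitm rows blue in all 3 ALX-5407 libraries.

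The shift was alike in the treated libraries. Relative to the mean of the Th1 libraries, the median log2 level of the 41 members was 0.01, -0.04 and 0.02 in the Th1 libraries and 0.49, 0.53 and 0.47 in the ALX-5407 libraries. Of the 41 members, 25, 14 and 25 lay above that mean in the Th1 libraries and 34, 32 and 31 in the ALX-5407 libraries. The heat map by library shows the same blocks of high and low genes in each treated library.

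**Figure D2:**
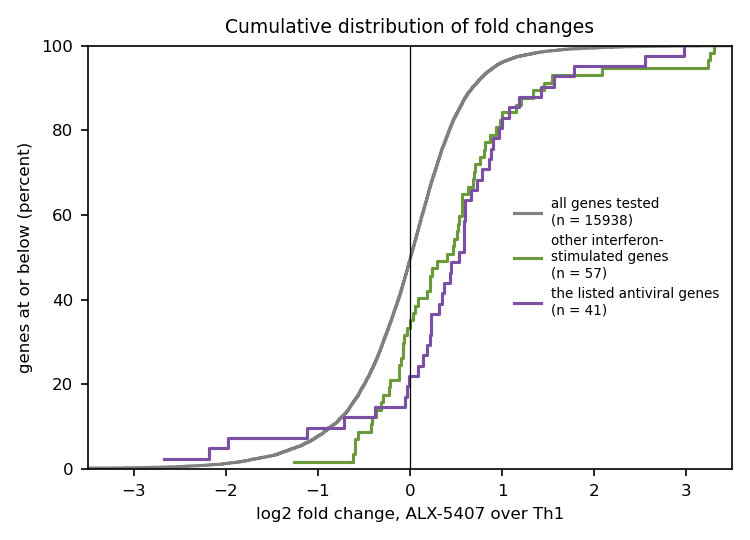
Cumulative distribution of log2 fold changes (horizontal axis, ALX-5407 over Th1) for the 41 listed antiviral genes, 57 other interferon-stimulated genes and all 15938 genes tested, with the percentage of genes at or below each value on the vertical axis. The antiviral genes (median 0.53) lie to the right of all genes (median 0.0053) over most of the range, with a short lower tail below -1.

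Promoter sequence was read for the 35 members that the RefSeq table of GRCm38.p6 holds, as windows from 250 bases before to 50 after the start of transcription, and 7 of these had more than 1 start. Dhx58, Ifi27, Ly6e, Mx1, Oas2, Parp14, Parp9, Rtp4, Usp18 and Zbp1 had no entry. A core of the interferon-stimulated response element, searched as GAAA, any 2 bases and GAAA on both strands, was found in 15 of the 35 members (42.9%, exact 95% confidence interval 26.3 to 60.6) and in 3.76% of 10608 tested genes with a promoter. It was also found in 21 of 50 other interferon-stimulated genes (42.0%). The 35 members include Ifit3, Ifit3b and Ifi44, which were not tested, whereas the sets beside them hold tested genes only. Ifit3 and Ifit3b, which are near copies, each hold a match. The 6 stretches below were chosen because they belong to members with a match and rose, fell or did not pass the test. Each runs from 130 bases before to 30 after the start, 5′ to 3′ on the gene's strand, with the matches, which may overlap, in capitals (the core reads as TTTC, any 2 bases, TTTC where it lies on the other strand). Rsad2 is chr12:26456423-26456582 (- strand), Oas1a chr5:120907496-120907655 (- strand), Isg15 chr4:156200789-156200948 (- strand), Ifit1 chr19:34640759-34640918 (+ strand), Ifitm2 chr7:140955932-140956091 (- strand) and Ifitm3 chr7:141010715-141010874 (- strand).
Rsad2: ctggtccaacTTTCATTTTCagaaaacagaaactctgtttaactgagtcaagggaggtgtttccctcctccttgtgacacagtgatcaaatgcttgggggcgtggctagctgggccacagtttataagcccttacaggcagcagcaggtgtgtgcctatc
Oas1a: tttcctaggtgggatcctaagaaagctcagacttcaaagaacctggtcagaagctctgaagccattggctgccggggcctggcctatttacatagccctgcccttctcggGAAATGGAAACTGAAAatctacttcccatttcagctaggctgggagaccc
Isg15: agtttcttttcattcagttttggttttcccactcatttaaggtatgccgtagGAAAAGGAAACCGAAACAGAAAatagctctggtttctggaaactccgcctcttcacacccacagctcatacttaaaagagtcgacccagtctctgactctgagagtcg
Ifit1: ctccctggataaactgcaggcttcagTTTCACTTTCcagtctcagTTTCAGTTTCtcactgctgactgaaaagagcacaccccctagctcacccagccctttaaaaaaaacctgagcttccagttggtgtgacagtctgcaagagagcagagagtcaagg
Ifitm2: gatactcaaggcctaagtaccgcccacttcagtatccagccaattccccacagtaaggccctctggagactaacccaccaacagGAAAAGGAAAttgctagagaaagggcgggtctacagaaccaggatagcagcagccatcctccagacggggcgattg
Ifitm3: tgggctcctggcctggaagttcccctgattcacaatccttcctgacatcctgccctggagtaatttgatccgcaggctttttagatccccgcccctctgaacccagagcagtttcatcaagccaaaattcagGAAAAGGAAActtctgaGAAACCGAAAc

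Genes with this core did not share a direction. Of the members with a match, 13 were tested, and 9 were higher, 2 were lower and 2 were not called. The lower genes were Ifitm2, with its match 46 bases before the start, and Ifitm3, with matches at positions 3 and 20 of the transcribed part. Those not called were Ifit1, with matches 104 and 85 bases before the start, and Bst2. Of the 19 tested members with a promoter but no match, 12 were higher, 1 was lower and 6 were not called. Over all genes tested, 24.5% were called higher and 23.2% lower. The gamma-activated site, searched as TTC, any 3 bases and GAA, was found in 10 of 35 members (28.6%), in 4 of 50 other interferon-stimulated genes (8.0%) and in 8.31% of the tested genes with a promoter. A match is a run of letters and not a measured binding site.

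Among the IFIT proteins, some of which bind viral RNA that lacks the cap methylation of host mRNA, Ifit2 rose. It had 246, 277 and 256 counts in the Th1 libraries and 538, 558 and 513 in the ALX-5407 libraries. The groups were far apart, at 8.24 ± 0.644 and 14.9 ± 0.302 CPM (SD, n = 3 each), and the log2FC was 0.86 (SE 0.117, adjusted p = 1.59e-05 by edgeR). Ifit1, whose promoter carries a pair of matches above, had 91, 67 and 91 counts without and 85, 76 and 56 with ALX-5407. Its groups overlapped, and at 2.63 ± 0.434 against 2.01 ± 0.405 CPM (SD, n = 3 each) its log2FC of -0.38 (SE 0.241) did not pass the test (adjusted p = 0.207 by edgeR). The 4 IFIT genes lie in the same stretch of chromosome 19, from 34550694 to 34650009 (GRCm38), with Ifit1bl1 and Ifit1bl2 among them. Ifit3 and Ifit3b are near copies, with 97.4% of the Ifit3 transcript matched at 97.8% identity, so their low counts are uncertain.

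Proteins of the 2-5A synthetase family respond to double-stranded RNA, and most of them make a second messenger of the antiviral response. Oas3 was the only abundant one. It had 1251, 1296 and 1021 counts without and 2162, 2070 and 1879 with ALX-5407, at 37.6 ± 4.13 and 56.8 ± 3.97 CPM (SD, n = 3 each). The groups were separate and the log2FC was 0.59 (SE 0.0909, adjusted p = 5.41e-05 by edgeR). The other 4 were low. Oas1a had 10, 10 and 17 counts without and 54, 23 and 36 with ALX-5407, a log2FC of 1.42 (SE 0.451, adjusted p = 0.0159 by edgeR). Its groups did not overlap, but the call was lost without Th1 replicate 1 (adjusted p = 0.0738), Th1 replicate 2 (0.063) or ALX-5407 replicate 1 (0.107). The whole Oas1a transcript is matched by its neighbour Oas1g at 97.6% identity, and Oas1g had at most 4 counts. Oas2 had 4, 1 and 9 counts without and 23, 11 and 14 with ALX-5407 (adjusted p = 0.0585), and Oasl2 had 14, 28 and 9 against 39, 35 and 40 (adjusted p = 0.0703). Neither pair of groups overlapped, yet neither gene passed the test. Both passed the low-count filter in full only in the ALX-5407 libraries. Oasl1 overlapped between groups, with 20, 36 and 34 against 38, 36 and 42 counts (adjusted p = 0.713).

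The genes of ISG15 conjugation went in opposite directions. Isg15, the ubiquitin-like modifier itself, had 155, 172 and 192 counts in the Th1 libraries and 288, 310 and 254 in the ALX-5407 libraries. It rose from 5.49 ± 0.739 to 7.90 ± 0.576 CPM (SD, n = 3 each), a log2FC of 0.53 (SE 0.15, adjusted p = 0.00858 by edgeR), with no overlap of the groups. Without Th1 replicate 1 its adjusted p was 0.052. Usp18, the protease that removes ISG15 and also blocks signalling at IFNAR2, had 1065, 982 and 1016 counts without and 583, 489 and 531 with ALX-5407. It fell from 32.3 ± 0.902 to 14.9 ± 1.71 CPM (SD, n = 3 each), a log2FC of -1.12 (SE 0.101, adjusted p = 2.22e-07 by edgeR). All treated libraries lay well below all untreated ones. Herc6, the mouse ISG15 ligase, rose with a log2FC of 0.45 (adjusted p = 0.0149), which was lost without Th1 replicate 2 (0.0521) or ALX-5407 replicate 3 (0.0622). Trim25, a ligase that activates RIG-I, was at 80.4 ± 4.24 against 88.8 ± 5.59 CPM (SD, n = 3 each) and did not pass the test (log2FC 0.14, adjusted p = 0.135).

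All 6 sensors and editors of nucleic acids were called, 5 higher (83.3%, beside 24.5% of all genes tested) and 1 lower (16.7%, beside 23.2%). Zbp1, the sensor of Z-form nucleic acid that can start necroptosis, moved most among them. It had 1442, 1152 and 1274 counts without and 2846, 2708 and 2616 with ALX-5407, and its log2FC was 0.90 (SE 0.0839, adjusted p = 3.26e-07 by edgeR). Its highest untreated library lay far below its lowest treated one. Adar, the A-to-I editor of double-stranded RNA, rose by 0.66 on the log2 scale (adjusted p = 4.23e-06). Eif2ak2, which encodes the translation-blocking kinase PKR, rose by 0.59 (adjusted p = 3.93e-05). Adar shares 16.8% of its exon bases with Chrnb2 on the other strand, which had 92 to 261 counts.

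The 3 RIG-I-like receptors were split. Ifih1 (MDA5) rose by 0.60 on the log2 scale (SE 0.114, adjusted p = 3.71e-04 by edgeR) and Ddx58 (RIG-I) by 0.43 (SE 0.102, adjusted p = 0.00241). Dhx58 (LGP2), which lacks the signalling domain of these sensors and tunes their activity, had 2272, 1940 and 1885 counts without and 1341, 1543 and 1312 with ALX-5407. It fell from 64.3 ± 4.75 to 38.9 ± 2.13 CPM (SD, n = 3 each), a log2FC of -0.72 (SE 0.0814, adjusted p = 2.3e-06 by edgeR), with separate groups.

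Of the transcription factors, Stat2 rose and its partner Irf9 did not pass the test. Stat2 had 2326, 2295 and 2110 counts without and 3405, 3287 and 3168 with ALX-5407, and its log2FC was 0.37 (SE 0.0718, adjusted p = 5.1e-04 by edgeR). Irf9 had 1362, 1262 and 1302 counts against 1500, 1473 and 1335. Its log2FC was -0.051 (SE 0.0794, adjusted p = 0.63 by edgeR), and the groups overlapped in CPM. Irf7, the factor that amplifies interferon production, had 136, 155 and 113 counts against 206, 197 and 137. Its groups overlapped in CPM, at 4.26 ± 0.64 and 5.01 ± 0.992 (SD, n = 3 each), with a log2FC of 0.23 (adjusted p = 0.339). Irf1, a main factor of interferon gamma responses, stood at 131 ± 0.29 and 130 ± 6.32 CPM (SD, n = 3 each, adjusted p = 0.902 by edgeR). Irf8 rose by 0.23 on the log2 scale (adjusted p = 0.0135), a call that was lost without Th1 replicate 2, ALX-5407 replicate 1 or ALX-5407 replicate 2 (adjusted p = 0.0573, 0.0542 and 0.0727).

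The largest decreases among the members were those of the 3 IFITM genes, which encode small membrane proteins that block the fusion of viruses with the endosome. Ifitm3 (ENSMUSG00000025492) had 1262, 1392 and 1105 counts in the Th1 libraries and 244, 246 and 180 in the ALX-5407 libraries. It fell from 39.7 ± 4.32 to 6.21 ± 0.947 CPM (SD, n = 3 each), a log2FC of -2.67 (SE 0.124, adjusted p = 2.09e-10 by edgeR) or 6.38-fold lower. No treated library came near an untreated one.

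Ifitm2 (ENSMUSG00000060591) had 1933, 2143 and 1267 counts without and 445, 480 and 413 with ALX-5407. Its untreated libraries were spread (56.3 ± 13.8 CPM, SD, n = 3), the treated ones were tight (12.4 ± 0.567 CPM, SD, n = 3), and the log2FC was -2.18 (SE 0.143, adjusted p = 7.74e-09 by edgeR). Ifitm1 (ENSMUSG00000025491) had 558, 538 and 530 counts against 170, 185 and 114, a log2FC of -1.98 (SE 0.15, adjusted p = 3.61e-08 by edgeR). The 3 genes lie in the same stretch of chromosome 7 (GRCm38), from 140954837 to 141010770. Irf7, 251936 bases further along, was not called. Scaled per kilobase of gene length, Ifitm2 had the highest Th1 level of all 45 members, at 85.9 RPKM, and fell to 19.0 RPKM with ALX-5407. Pseudogenes that match 66.0% or less of the Ifitm2 transcript at 95% identity or more had at most 3 counts.

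**Figure D3:**
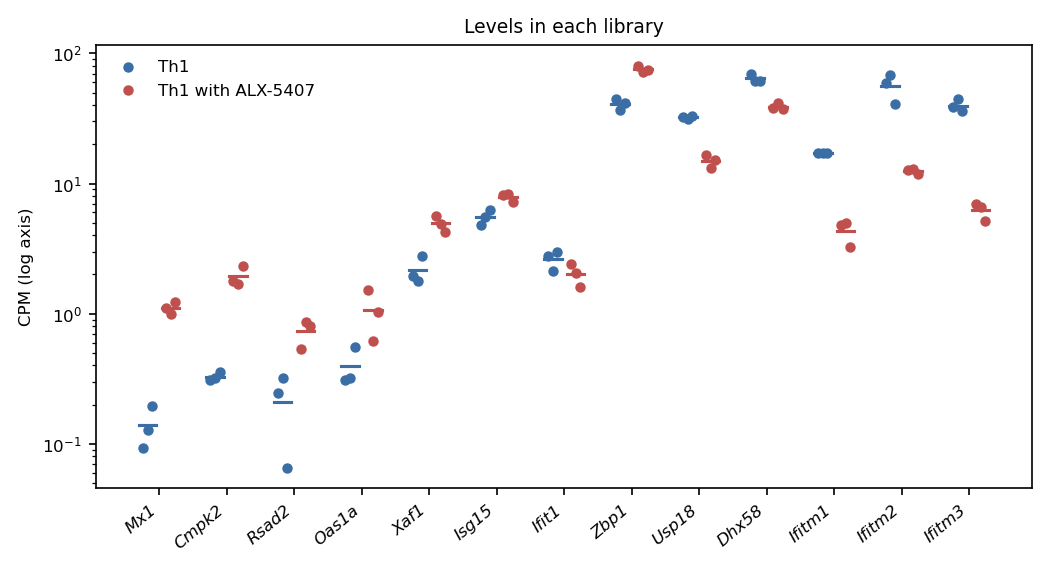
Level of 13 antiviral genes in each library (points, CPM on a log axis), Th1 in blue and ALX-5407 in red, with the group mean as a bar. The blue and red points of Usp18, Dhx58 and the Ifitm genes are separate with red below, those of Mx1, Cmpk2, Xaf1 and Zbp1 are separate with red above, and those of Ifit1 overlap.

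Of the other surface and secreted proteins of the list, Lgals3bp and Ly6e rose. Lgals3bp, a secreted glycoprotein that binds galectins, had 579, 450 and 598 counts without and 1287, 1340 and 1294 with ALX-5407. It rose from 17.2 ± 2.59 to 36.4 ± 0.494 CPM (SD, n = 3 each), a log2FC of 1.08 (SE 0.106, adjusted p = 4.92e-07 by edgeR). Ly6e, a lipid-anchored surface protein that restricts coronavirus entry, rose from 189 ± 24.1 to 287 ± 15.1 CPM (SD, n = 3 each, log2FC 0.60, adjusted p = 3.57e-05 by edgeR). Bst2 (tetherin), which holds budding virions at the cell surface, had a log2FC of 0.088 and did not pass the test (adjusted p = 0.444).

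In the group of PARP14, PARP9 and DTX3L, which act on ADP-ribosylation and ubiquitination in interferon signalling, Parp14 moved most. Parp14 had 1181, 1024 and 1265 counts without and 2573, 2604 and 2726 with ALX-5407. Levels of 36.7 ± 4.24 and 73.5 ± 4.01 CPM (SD, n = 3 each) gave a log2FC of 1.00 (SE 0.0889, adjusted p = 1.9e-07 by edgeR). Dtx3l rose by 0.22 on the log2 scale (adjusted p = 0.0329), and this call was lost without Th1 replicate 3 or any 1 of the ALX-5407 replicates (adjusted p from 0.0671 to 0.144). Parp9 did not pass the test (log2FC -0.029, adjusted p = 0.773). The 3 genes lie in the same stretch of chromosome 16, from 35832874 to 35972605, and Dtx3l and Parp9 share 458 exon bases on opposite strands, whose reads may be split between them.

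The remaining antiviral effectors that were tested, 10 genes, were all higher, beside 24.5% of all genes tested. Of these, Mx1 and Rsad2 passed the low-count filter in full only in the ALX-5407 libraries, and the other 8 passed in both groups. The 3 largest folds came from very low levels. Mx1, a GTPase against orthomyxoviruses whose gene is known to be defective in C57BL/6 mice, had 3, 4 and 6 counts in the Th1 libraries and 39, 37 and 43 in the ALX-5407 libraries. It rose from 0.138 ± 0.0522 to 1.11 ± 0.117 CPM (SD, n = 3 each), a log2FC of 2.98 (SE 0.473, adjusted p = 7.63e-05 by edgeR). The groups were separate, but Mx1 passed the low-count filter only through the treated libraries, and a handful of reads sets its untreated level.

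Cmpk2 and Rsad2, described per library after their values were seen, lie next to each other on chromosome 12 with 12752 bases between them. Cmpk2, a mitochondrial nucleotide kinase, had 10, 10 and 11 counts without and 63, 63 and 82 with ALX-5407 (log2FC 2.55, SE 0.349, adjusted p = 1.72e-05 by edgeR). Rsad2, which encodes viperin, the maker of a chain-terminating nucleotide, had 8, 10 and 2 counts without and 19, 32 and 28 with ALX-5407. Its log2FC of 1.78 (SE 0.536, adjusted p = 0.0118 by edgeR) went to 1.35 (adjusted p = 0.0522) without Th1 replicate 3. Both genes were separate between the groups, though Rsad2 passed the low-count filter in full only in the ALX-5407 libraries.

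Effectors with more counts rose by less. Xaf1, a pro-apoptotic partner of XIAP, had 63, 56 and 85 counts against 199, 183 and 149 (log2FC 1.19, SE 0.212, adjusted p = 2.26e-04 by edgeR). Ifi47, an immunity-related GTPase, had 1348, 1343 and 1652 counts against 3212, 3007 and 2909 (log2FC 0.88, SE 0.0949, adjusted p = 1.41e-06). Trim30a, a TRIM protein that restrains Toll-like receptor signalling, had 1743, 1690 and 1932 counts against 3344, 3603 and 3565 (log2FC 0.78, SE 0.0795, adjusted p = 7.68e-07). In each of these the lowest treated library lay above the highest untreated one. Isg20, an exonuclease of single-stranded RNA, had 198, 144 and 158 counts against 371, 322 and 250, with separate groups and more spread among the treated libraries (log2FC 0.73, SE 0.168, adjusted p = 0.00186). Ifi27 rose by 0.59 on the log2 scale (adjusted p = 1.63e-05), Ifi35 by 0.35 (adjusted p = 0.00918) and Samd9l, a translation inhibitor, by 0.32 (adjusted p = 0.0242). The call of Ifi35 was lost without ALX-5407 replicate 1 (adjusted p = 0.0576), and that of Samd9l without Th1 replicate 1, Th1 replicate 2 or ALX-5407 replicate 1 (adjusted p = 0.11, 0.0846 and 0.137).

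**Figure D4:**
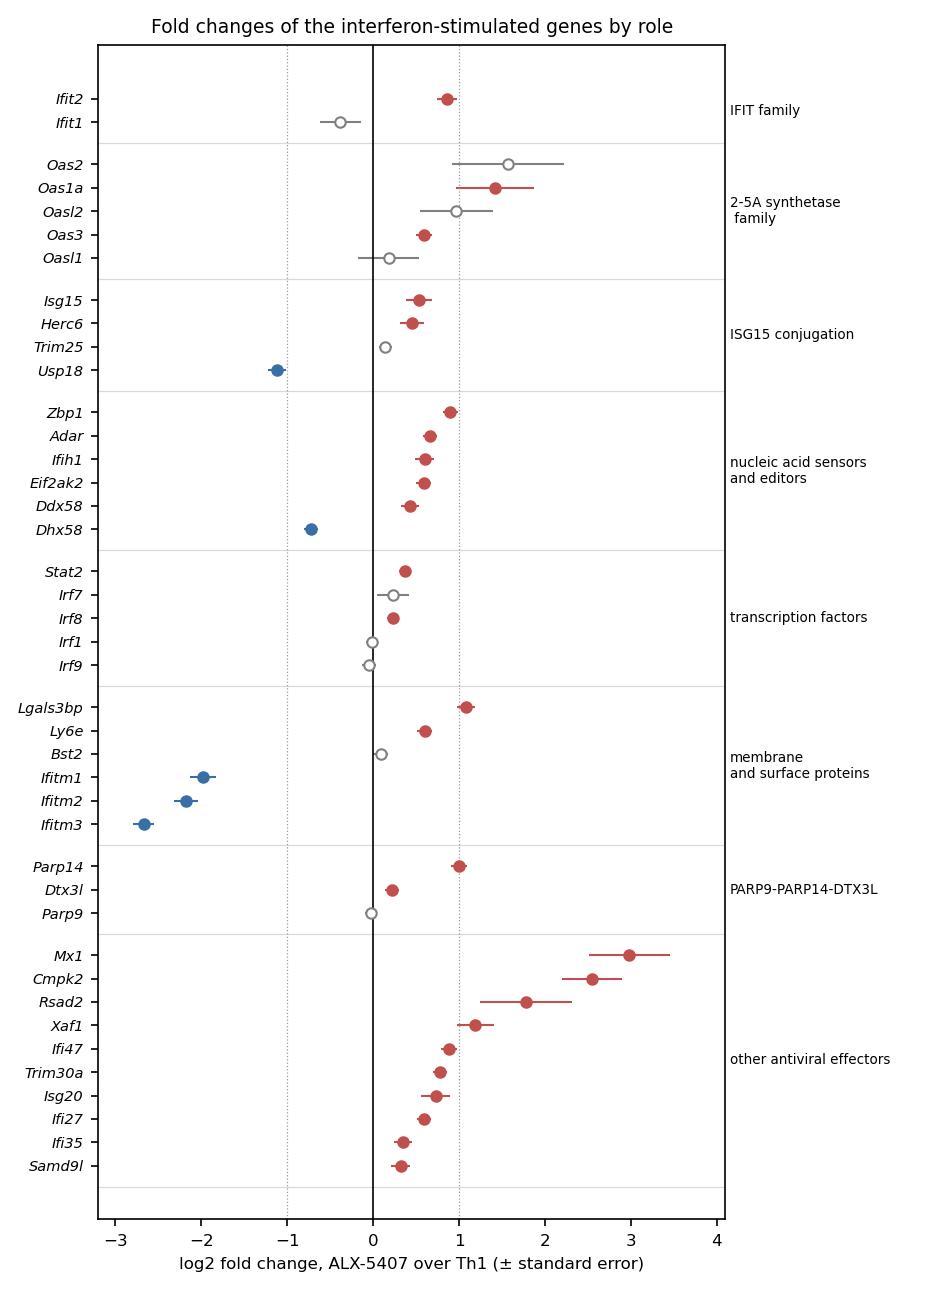
Log2 fold change (horizontal axis, ALX-5407 over Th1) with its standard error for the 41 tested antiviral genes, grouped by role. Filled points passed an adjusted p of 0.05 in edgeR (red higher, blue lower), open points did not, and dotted lines mark log2 fold changes of -1 and 1, with the Ifitm genes at -2.67 to -1.98 and Mx1 at 2.98.

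RNA of the type I interferons themselves was at the detection limit. Of the 18 type I interferon genes in the table, 13 had 0 counts in all 6 libraries and none was tested. Ifnb1 had 0, 0 and 0 counts without and 0, 2 and 0 with ALX-5407. Outside Ifnk, which had 6, 7 and 10 counts without and 0, 0 and 1 with ALX-5407, no type I gene exceeded 4 counts. These levels do not show whether interferon protein was present in the cultures. Ifng, the abundant type II interferon of Th1 cells, had 17955, 20848 and 23514 counts without and 14134, 14297 and 12765 with ALX-5407. It fell from 660 ± 106 to 383 ± 18.1 CPM (SD, n = 3 each), a log2FC of -0.79 (SE 0.0967, adjusted p = 5.75e-06 by edgeR).

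The 6 interferon receptor genes had no member that rose. Ifnar1 fell by 0.32 on the log2 scale (adjusted p = 0.00135), Ifngr1 by 0.55 (2.59e-05) and Ifngr2 by 0.73 (3.77e-05). Ifnlr1 had 30, 31 and 35 counts without and 16, 3 and 8 with ALX-5407, a log2FC of -1.99 (adjusted p = 0.00394). It passed the low-count filter in full only in the Th1 libraries, which favoured a higher level there. Ifnar2 did not pass the test (log2FC -0.13, adjusted p = 0.252). Of the kinases and STATs, Jak1 rose by 0.24 (adjusted p = 0.00948) and Tyk2 by 0.20 (0.0399), whereas Stat4, the IL-12 transducer, fell by 1.16 (5.55e-08) and Stat3 by 0.61 (1.06e-05). Among 7 inhibitors, Socs1 rose by 0.44 (adjusted p = 0.00133) and Ptpn11 by 0.21 (0.0265), whereas Ptpn2, a phosphatase of JAK1, fell by 0.75 (2.4e-07). Over the whole list of receptors, JAK-STAT genes and inhibitors, 5 of 19 were higher (26.3%, beside 24.5% of all genes tested), 7 were lower (36.8%, beside 23.2%) and 7 were not called.

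Other genes that sense nucleic acids or relay that signal to interferon transcription were read from a separate list. Of 19 tested, 3 were higher (15.8%, beside 24.5% of all genes tested), 6 were lower (31.6%, beside 23.2%) and 10 were not called. The higher ones included Traf6 (log2FC 0.22, adjusted p = 0.0271) and Mb21d1, which encodes the DNA sensor cGAS (0.41, 0.0386). Samhd1, a nucleotide phosphohydrolase, fell by 0.66 (adjusted p = 8.87e-07), the kinase gene Ikbke by 0.67 (3.51e-06), the inflammasome sensor Aim2 by 0.74 (2.51e-05), Tmem173 (STING) by 0.40 (2.95e-04) and Rnaseh2b by 0.38 (0.00293). Ticam1, the adaptor TRIF, was also lower.

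**Figure D5:**
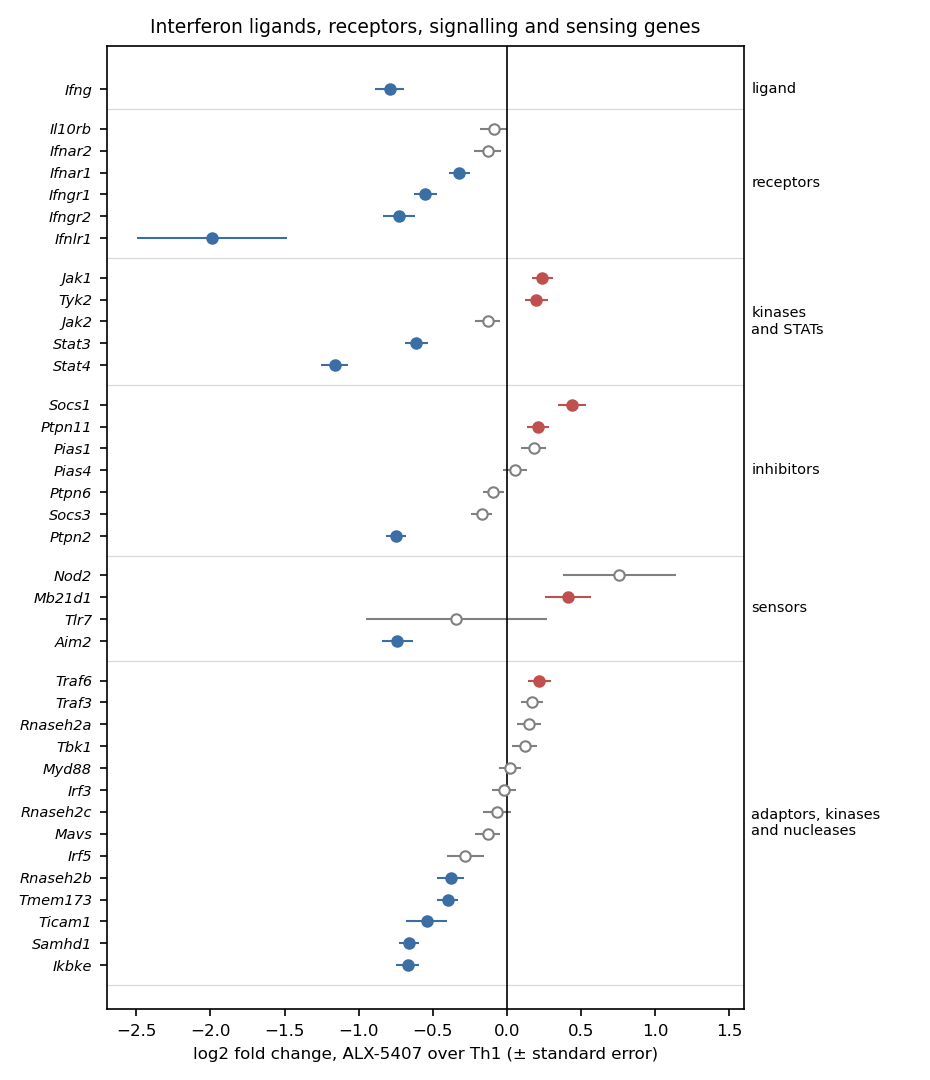
Log2 fold change (horizontal axis, ALX-5407 over Th1) with its standard error for ligand, receptor, JAK-STAT and nucleic acid sensing genes that were tested and are reported here, grouped by role. Filled points passed an adjusted p of 0.05 in edgeR (red higher, blue lower) and open points did not, and no receptor gene is red.

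Of 57 interferon-stimulated genes tested outside the 45, 28 were higher (49.1%, beside 24.5% of all genes tested), 9 were lower (15.8%, beside 23.2%) and 20 were not called, with a median log2FC of 0.40. The smallest p-values among the higher ones belonged to Rnf213 (log2FC 1.21, adjusted p = 1.71e-08), Slfn2 (1.15, 8.26e-08), Slfn8 (1.34, 1.51e-07), Pml (0.81, 1.88e-07) and Ifi209 (2.09, 2.2e-07). Rnf213 is a giant ubiquitin ligase, the Slfn genes encode Schlafen proteins, and Pml builds nuclear bodies. Among the lower ones were the nuclear body proteins Sp140 (-0.62, 4.29e-06) and Sp110 (-0.37, 0.00212), the MS4A membrane proteins Ms4a4c (-1.26, 3.45e-05) and Ms4a4b (-0.41, 1.63e-04), and Epsti1 (-0.60, 1.87e-04). Of 7 tested genes of the p200 family, which bind DNA, 6 were higher (85.7%, beside 24.5% of all genes tested). Ifi211 was lower (-0.57, adjusted p = 0.0254). Of the higher ones, Ifi204, Ifi206 and Ifi214 had at most 10 counts in any Th1 library. They passed the low-count filter in full only in the ALX-5407 libraries, which favoured a higher level there, and they are among the 28 above.

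Of 8 IRF genes and IRF-binding partners outside the list, 4 were higher. Irf4, the activation-induced factor of T cells, rose by 0.48 on the log2 scale (adjusted p = 7.43e-05), as did the corepressor genes Irf2bp1 (0.79), Irf2bp2 (0.56) and Irf2bpl (1.03).

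The libraries held 30801753 to 36727788 counts each. All 15 markers of T cells and Th1 cells were tested, and their mean level was 8.24 CPM or more in both groups. With ALX-5407, 3 of the 15 were higher, beside 24.5% of all genes tested, and 8 were lower (53.3%, beside 23.2%). The other 4 were not called, and the log2FC values of the 15 ran from -1.16 to 0.52. Cd4 stood at 646 ± 67.4 CPM in Th1 and 470 ± 10.8 CPM in treated libraries, and Trac at 270 ± 14.8 and 271 ± 7.36 CPM (SD, n = 3 each). Of 32 markers of other cells, 16 had at most 10 counts in every library, and Siglech, S100a8, S100a9 and Elane had 0 in all. Of these markers, 14 were tested, 5 were higher (35.7%, beside 24.5% of all genes tested) and 4 lower (28.6%, beside 23.2%). The summed level of the 32 was 176 to 185 CPM without and 105 to 119 CPM with ALX-5407. The 5 B cell markers summed to 7.6 to 8.85 CPM without and 11.4 to 14.4 CPM with ALX-5407, whereas most of the difference in the whole sum was that of Ly6g (69.8 to 75.3 against 24.1 to 31.6 CPM) and Cd68 (14.8 to 20.7 against 5.04 to 5.65 CPM). Without these the sum was 85.0 to 91.4 CPM without and 75.3 to 83.2 CPM with ALX-5407, and the other 6 monocyte and macrophage markers had at most 15 counts in any library. The part of these cells in the changes of the antiviral genes was not tested.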

How the data were processed

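RNA of 6 mouse CD4+ T cell cultures was sequenced. The authors deposited raw counts, the number of reads per gene, with gene names, GRCm38 coordinates and lengths. The submitters' processing notes list fastp, HISAT2 2.0.5, featureCounts 1.5.0-p3 and mm10, with no roles. The treatment of multi-mapping reads and of strand is not given in the sources used here, which bears on genes with near copies or antisense neighbours. The labels describe poly-T capture of mRNA, whereas the study's methods describe depletion of ribosomal RNA. The study named DESeq2.

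Groups and replicate numbers came from the labels. The members and lists were chosen with earlier results of these data known. Genes were filtered with filterByExpr (minimum count 10, minimum total 15) and tested in edgeR 4.0.16 (R 4.3.3) with TMM factors (0.965 to 1.03), the quasi-likelihood test and Benjamini-Hochberg adjustment over 15938 genes, a procedure that was also tested on simulated data. Standard errors came from the fold change and its F statistic. RPKM divided CPM by the deposited gene length. Depth was 30801753 to 36727788 counts per library, and members with a mean under 50 counts (7 of 41 tested) have wide errors. Intervals of promoter shares are exact binomial (SciPy 1.17.1).

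Values in every library are given for the 8 largest rises and falls among called members whose mean was 50 counts or more (5 fell), and for Irf7, Irf9, Stat2, Isg15, Usp18, Ifit1 and Mx1. Other members given per library were chosen after their values were seen. Of other lists, up to 5 called genes each way with the smallest p are named, with Ifng, Ifnb1, Ifnar1, Ifnar2, Jak1, Tyk2 and Socs1. Some genes of these lists are not reported here. Alternatives were other scalings, filters, DESeq2 1.42.0, limma-voom (limma 3.58.1), a replicate block, each replicate left out and a shorter promoter window. Near copies (95% identity or more over at least 100 bases) were found with BLAST 2.17.0 in GENCODE M21 transcripts. Plots were made in Python 3.11.15 with matplotlib 3.10.9.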

Additional observations from a re-analysis of the deposited data

How the results depend on the processing

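The 5 lower members stayed at 5 under every scaling, filter, tool and left-out replicate tried at an adjusted p under 0.05, and the count of higher members ran from 21 to 28. Over all genes tested, the share called higher ran from 14% without the low-count filter to 28.5% at a mean of at least 50 counts. The share called lower ran from 13.1% to 28.4% between the same settings. Adding an absolute log2 fold change over 1 reduced the higher members from 26 to 7. With both conditions there were 2, Xaf1 and Lgals3bp, when only genes with a mean of at least 50 counts were tested, since Mx1, Cmpk2, Rsad2 and Oas1a lie below that mean and Parp14 came to 0.97. DESeq2 called 26 members higher and 5 lower. The median log2 fold change of the members, 0.53, was 0.47 with upper-quartile factors, 0.58 with total counts only and 0.57 without the low-count filter. It was 0.37 at a mean of at least 50 counts and 0.49 to 0.55 with each replicate left out. Without Ifit3, Ifit3b, Isg15, Oas1a and Trim30a it was 0.44. This set is not that of the near copies, as Trim30a had no such match and Ifitm2, matched by pseudogenes, was kept. Isg15, Oas1a and Trim30a were each called higher, and Ifit3 and Ifit3b were not tested. Of the 31 called members, 23 kept their call in all alternatives with a value, 8 lost it in at least 1, and 3 members not called were called in at least 1. No called member changed sign. Same-numbered libraries showed no clear shared deviation (correlations -0.0084, 0.00355 and 0.0635), and not every library correlated best with its own number. The labels do not say whether the samples were paired. The replicate block gave 27 higher and 5 lower members and called Oas2 (adjusted p = 0.0475). In the last 200 bases of the promoter window, the response element core was found in 37.1% of members and the gamma-activated site in 7 of 35, beside 2.30% and 5.43% of all tested genes with a promoter. Depth limits the members with few counts most, of which 7 of 41 tested had a mean under 50.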
